A study of Mus musculus with 4 samples.

Results

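Genes of the heat shock response and of the unfolded protein response were examined in mouse cerebellum after short exposure to clothianidin. The members were 36 genes given by name, each represented by the probe set with that gene symbol in the platform annotation and, where a gene had several, by the one with the highest mean over the arrays. Of these 36, 30 were measured among 19505 named genes on 22206 probe sets, namely 11 of 15 genes of the cytosolic and mitochondrial heat shock response, 13 of 15 genes of endoplasmic reticulum (ER) folding and its sensors, and all 6 genes of the ATF4 branch. Hspa8, Dnaja1, Hsp90ab1, Hsf1, Pdia4 and Manf were not analysed here.

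The tissue came from male C57BL/6N mice aged 10 weeks that received clothianidin (CLO in the labels) at 50 mg per kg per day by mouth for 4 days (n = 2, replicates 6 and 7), or vehicle for the same 4 days (n = 2, replicates 7 and 9). All mice performed the rotarod test, a test of motor coordination on a turning rod, during those days, and brains were dissected under anaesthesia straight after it, so the vehicle mice carry the test and the anaesthesia too. Clothianidin is a neonicotinoid insecticide, and the series title calls it a NOAEL dose, meaning one at which no harmful effect has been observed. RNA was measured on Affymetrix whole-transcript arrays, whose deposited values are log2 intensities summarised per probe set.

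Cells meet unfolded protein with separate programmes according to where the protein lies. In the cytosol, the transcription factor HSF1 is held back by chaperones until misfolded clients draw them away, and it then binds heat shock elements in the promoters of chaperone genes. In the ER lumen, the sensors IRE1, PERK and ATF6 are kept quiet by the chaperone BiP. IRE1 splices the Xbp1 mRNA, cleaved ATF6 enters the nucleus, and both factors act on ER stress elements of chaperone genes, while PERK phosphorylates eIF2α and so favours translation of ATF4. ATF4 also responds to amino acid shortage and acts through amino acid response elements. Purkinje cells, the large output neurons of the cerebellar cortex, are known to be sensitive to faults in this system: loss of the BiP exchange factor Sil1 causes Purkinje cell degeneration and ataxia in mice.

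The promoters of the members were searched for the motifs of these programmes. Genes and motifs both come from what is known of the same programmes, so a match is a description and not independent support. Promoter windows from RefSeq (GRCm38.p6, 250 bases before to 50 after a gene's start) were matched by symbol for 28 of the 30 measured genes, on 31 windows, and both strands were searched. A gene counted when any of its windows matched. Paired heat shock units were written GAANNTTC or TTCNNGAA. They were found in 9 of 10 cytosolic and mitochondrial genes, 0 of 12 ER genes and 1 of 6 ATF4 genes. Of all 27025 genes with a window, 17% held them. The 3-unit form, which contains the paired one, was found in 4 of the 10 and in 0.662% of all genes with a window. The ER stress element is CCAAT followed after 9 bases by CCACG. It was found in 5 of 12 ER genes and in none of the other 16, against 0.137% of all genes with a window. The amino acid response element was written TGATGNAA. It was found in 3 of 6 ATF4 genes, in 1 of 12 ER genes (Herpud1) and in 4.51% of all genes with a window. The UPR element TGACGTGG was found in 0 of the 28 genes and in 0.714% of all genes with a window. In Asns the paired heat shock units overlap the amino acid response element. A match is a description of letters and not of a bound factor.

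Heat shock units are shown for 6 genes whose values are set side by side below, with 1 stretch per gene, which for Hspb1 holds 2 paired units. Capitals mark the matched units, each sequence runs 5′ to 3′ on the gene's own strand, and positions are GRCm38.p6. The matches begin before the gene's start by 104 bases in Hspa1b, 89 in Hspe1, 144 in Hspd1, and 117 and 97 in Hspb1. In Chordc1 the run begins 4 bases before the start and continues past it. The Bag3 match begins 42 bases after the start, at the end of the window. The stretch of Hspa1b is letter for letter that of Hspa1a, and the windows of this gene pair were identical at 296 of 300 positions. The stretch of Hspe1 is the same stretch of DNA as that of Hspd1 read from the other strand, since the 2 genes diverge from one promoter and their windows overlap by 285 bases.
Hspa1b, chr17:34959315-34959362, minus strand: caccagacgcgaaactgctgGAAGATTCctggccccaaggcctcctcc
Hspe1, chr1:55088039-55088096, plus strand: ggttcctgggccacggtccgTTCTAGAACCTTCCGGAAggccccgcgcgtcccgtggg
Hspd1, chr1:55088039-55088096, minus strand: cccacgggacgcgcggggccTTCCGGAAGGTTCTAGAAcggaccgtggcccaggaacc
Hspb1, chr5:135887802-135887849, plus strand: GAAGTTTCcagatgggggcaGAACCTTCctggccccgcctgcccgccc
Chordc1, chr9:18292260-18292288, plus strand: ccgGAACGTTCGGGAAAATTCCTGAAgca
Bag3, chr7:128523614-128523632, plus strand: ggatgggaccaGAAGTTTC

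The ER stress elements are shown because the 5 genes that hold one include the main ER chaperones. Capitals mark the element, which reads from CCAAT to CCACG in Hspa5, Pdia6 and the distal copy of Hsp90b1, and from the other strand in Calr, Creld2 and the proximal copy of Hsp90b1.
Hspa5, chr2:34772005-34772063, plus strand: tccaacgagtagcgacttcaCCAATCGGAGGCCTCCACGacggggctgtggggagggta
Pdia6, chr12:17266471-17266529, plus strand: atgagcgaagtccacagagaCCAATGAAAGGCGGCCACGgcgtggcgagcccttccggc
Hsp90b1 distal, chr10:86705618-86705676, minus strand: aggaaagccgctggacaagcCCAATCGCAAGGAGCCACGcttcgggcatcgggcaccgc
Hsp90b1 proximal, chr10:86705513-86705571, minus strand: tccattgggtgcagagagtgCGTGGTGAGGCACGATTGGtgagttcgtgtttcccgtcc
Creld2, chr15:88819500-88819558, plus strand: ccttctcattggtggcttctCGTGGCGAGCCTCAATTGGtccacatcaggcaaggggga
Calr, chr8:84847055-84847113, minus strand: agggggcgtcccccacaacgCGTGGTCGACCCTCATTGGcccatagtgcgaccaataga

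The amino acid response elements of 3 ATF4 targets are shown with the match in capitals, read from TGATG in Asns and from the other strand in Chac1 and Trib3. The match begins 193 bases before the gene's start in Chac1 and 23 before it in Asns, but 14 after it in Trib3.
Chac1, chr2:119351029-119351076, plus strand: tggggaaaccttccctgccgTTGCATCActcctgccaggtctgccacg
Trib3, chr2:152344028-152344057, minus strand: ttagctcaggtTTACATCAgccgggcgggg
Asns, chr6:7693214-7693243, minus strand: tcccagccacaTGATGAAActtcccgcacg

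**Figure D1:**
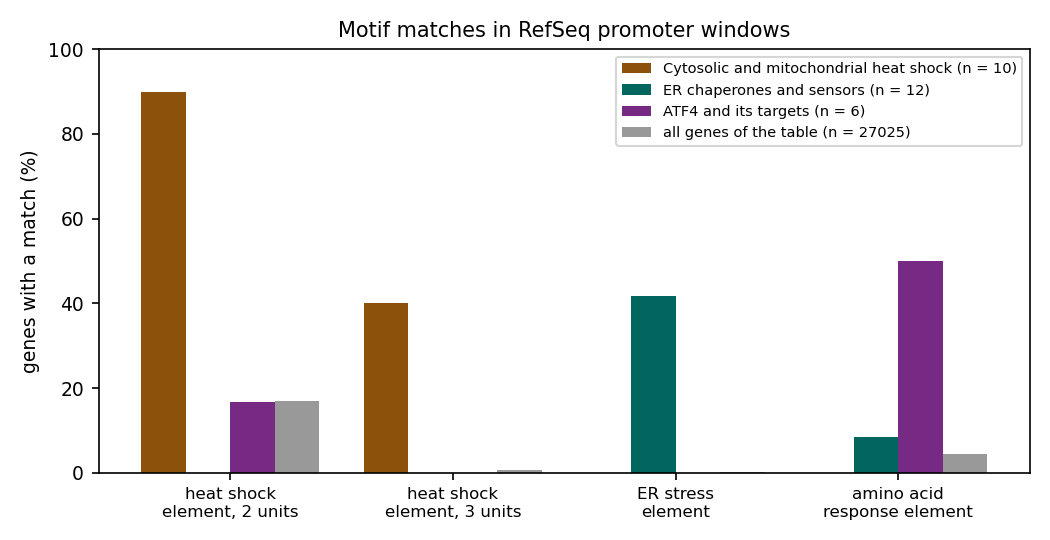
Share of genes with a motif match in a RefSeq promoter window (vertical axis, percent, from 0) for 4 motifs, in the 10 cytosolic and mitochondrial, 12 ER and 6 ATF4 genes with a window and in all 27025 genes of the table. Paired heat shock units stand in 9 of 10 heat shock genes, and the ER stress element in 5 of 12 ER genes and in neither of the other gene groups.

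Array medians lay between 6.49 and 6.54 (log2). Pearson's r across probe sets was 0.986 to 0.989 for every pair of arrays, within groups or between them. Neither measure shows the ends of the range. Vehicle replicate 9 was lowest for 38.8% of the 2886 probe sets at a level of at least 11.34, against 27.6% of all probe sets. The cerebellar label held, since the granule cell gene Gabra6 was at 17.05 and 17.40 on the clothianidin arrays and 17.41 and 17.09 on the vehicle arrays, and the Purkinje cell gene Car8 was at 18.19 to 18.45. Clothianidin replicate 7 stood apart in the choroid plexus markers Ttr and Kcnj13. Ttr, the transthyretin gene, was at 6.38 and 13.96 with clothianidin and at 5.70 and 5.67 with vehicle. Kcnj13, a potassium channel gene, was at 6.97 and 8.92 with clothianidin and at 6.99 and 6.73 with vehicle. Of the 10 choroid plexus genes measured, 6 were higher with clothianidin, with array medians of 5.26 and 6.10 with clothianidin and 5.12 and 5.30 with vehicle. The highest value lay on clothianidin replicate 7 for 4 of the 10 and on vehicle replicate 7 for 5. Of the other marker lists, 9 of 12 Purkinje, 8 of 11 granule, 8 of 12 astrocyte, 1 of 11 oligodendrocyte, 2 of 9 microglia and 4 of 10 endothelial genes were higher, with median log2 differences of 0.17, 0.29, 0.18, -0.17, -0.14 and -0.02 in that order. In such bulk tissue fewer cells of a type and less RNA per cell cannot be told apart. Whether the samples came from separate animals is not stated in the labels, so a p-value here reflects array-to-array spread that could be technical.

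The comparison of clothianidin with vehicle asked which transcripts differ after short exposure. Among the 30 genes, 22 had a higher mean with clothianidin and 8 a lower one, with a median log2 difference (clothianidin minus vehicle) of 0.23. Of all probe sets 48.1% were higher and 51.2% lower, and their median was -0.01. The 13 ER genes lay at a median of 0.30 with 12 higher, the 11 heat shock genes at 0.10 with 7 higher, and the 6 ATF4 genes at 0.07 with 3 higher. No gene passed. The limma method fits each probe set separately and draws its variance towards a value shared by all of them. Limma's adjusted p was 0.997 for each of the 30 genes, and 0% of all probe sets were called at an adjusted p of 0.05. At an unadjusted limma p under 0.05 there was 1 gene of 30, Bag3, on the higher side, where 4.23% of all probe sets met that level, 2.3% higher and 1.93% lower. For a single gene, an exact two-sided permutation test of 2 arrays against 2 cannot give a p below 0.333.

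The level of a gene moved with this count. Most of these genes gave high intensities, 26 of the 30 lying at or above the median level of all probe sets, where 58.4% of probe sets were higher. Among the 2886 probe sets at or above the genes' own median level of 11.34 the share higher with clothianidin was 60.5%, with a median difference of 0.08. After quantile normalization between arrays that share was 48.3%, and 20 of the 30 genes were higher with a median of 0.19. After loess normalization, which removes a trend with level, the share was 49.5%, and 21 of the 30 were higher with a median of 0.18. The ER median was 0.20 and 0.21 and the heat shock median -0.02 and 0.04 under these 2 settings.

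**Figure D2:**
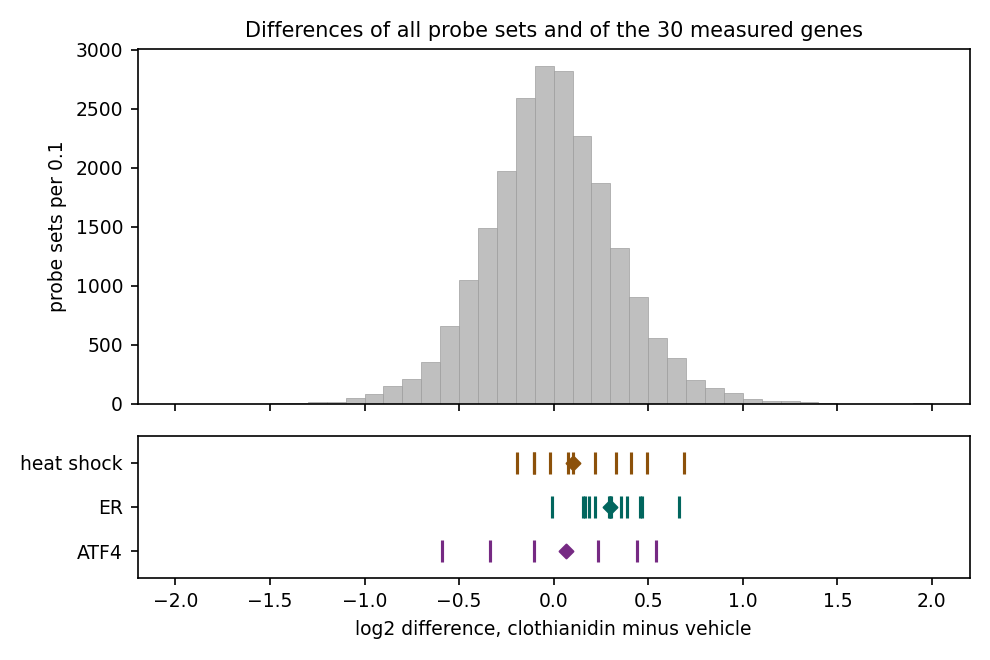
Upper panel, number of probe sets per 0.1 of log2 difference (clothianidin minus vehicle) over all 22206, with the 4 probe sets beyond 2 in either direction put in the end bars. Lower panel, the differences of the 30 measured genes by gene group (lines) and their medians (diamonds), with the ER median at 0.30 and the other medians at 0.10 and 0.07.

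Groups without overlap, in which both clothianidin arrays lay on one side of both vehicle arrays, were found for 13 of the 30 genes, 10 higher and 3 lower. Over all probe sets this held for 30.6%, with 15.1% higher and 15.5% lower. A difference of at least 1.5-fold without overlap was found for 2 of the 30, Bag3 on the higher and Sesn2 on the lower side, where 7.61% of all probe sets met the same rule, 4.04% higher and 3.57% lower. For 23 of the 30 genes the larger of the 2 gaps within a group exceeded the difference between the groups. The share over all probe sets was not counted. The same held for 32 of 40, 39 of 45 and 32 of 40 genes in the 3 lists of other pathway genes described below.

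**Figure D3:**
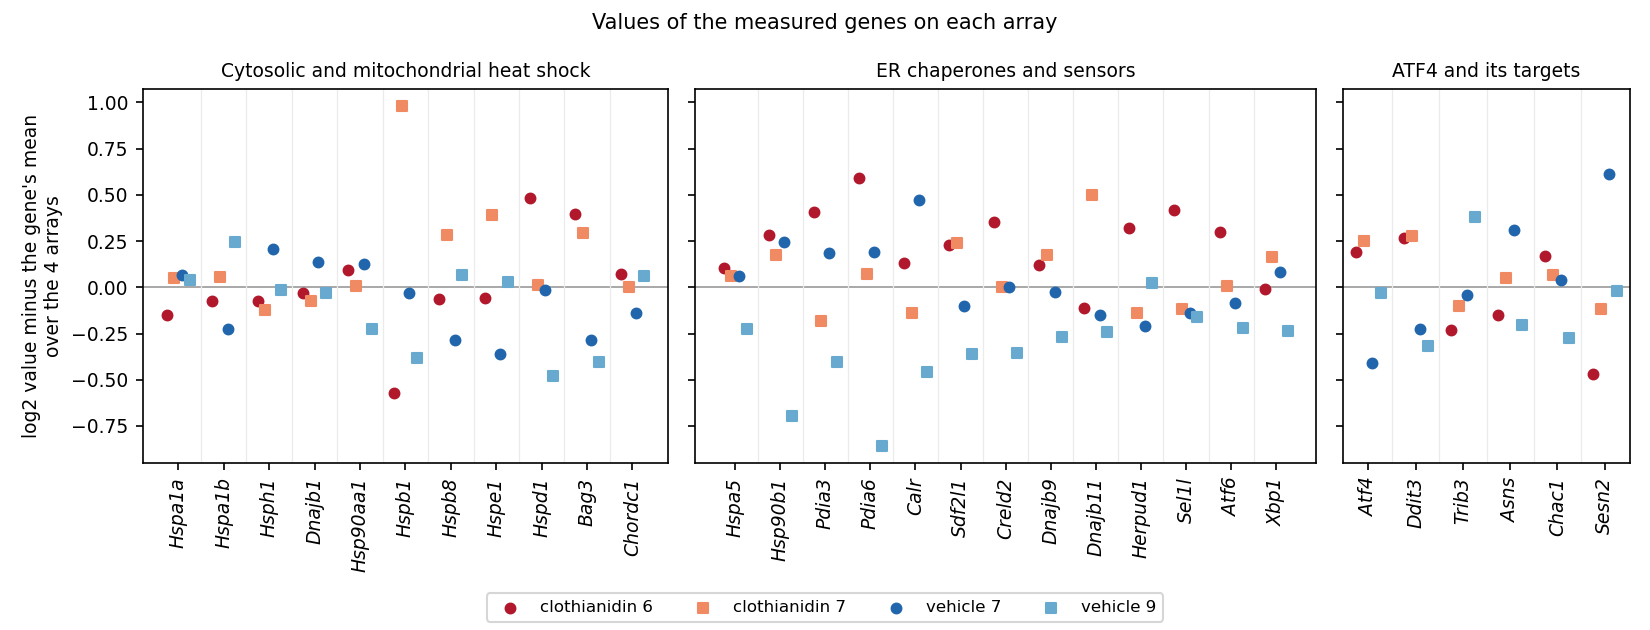
Log2 value of each measured gene minus its mean over the 4 arrays (vertical axis), by gene (horizontal axis) and gene group (panels), with clothianidin replicates 6 and 7 in reds and vehicle replicates 7 and 9 in blues. Vehicle replicate 9 is the lowest array for 12 of the 13 ER genes, and Hspb1 stands apart on clothianidin replicate 7.

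In the cytosolic group, the smallest p belonged to Bag3, a co-chaperone that couples HSP70 to small heat shock proteins and to selective autophagy. Bag3 was at 8.74 and 8.64 on the clothianidin arrays and at 8.06 and 7.94 on the vehicle arrays. The groups did not overlap, and the gaps within them were small beside the gap between them. The log2 difference was 0.69, with limma's standard error (SE) at 0.27, or 1.61-fold, with an unadjusted limma p of 0.0328 and an adjusted p of 0.997. With 1 array left out in turn it stayed between 0.63 and 0.75.

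The chaperonin genes Hspd1 and Hspe1 encode HSP60 and its lid HSP10 of the mitochondrial matrix. Hspd1 was at 13.63 and 13.16 with clothianidin and at 13.13 and 12.67 with vehicle, a difference of 0.50 (SE 0.31). Its groups were separate only by the 0.03 between clothianidin replicate 7 and vehicle replicate 7. Hspe1, which diverges from the promoter printed above, was at 9.61 and 10.06 with clothianidin and at 9.31 and 9.70 with vehicle, a difference of 0.33 (SE 0.30). Here the groups overlapped, and the array order differed from that of Hspd1: clothianidin replicate 6 was highest for Hspd1, and clothianidin replicate 7 for Hspe1.

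The stress-inducible HSP70 genes Hspa1a and Hspa1b, the best known HSF1 targets, did not separate the groups. Hspa1a was at 7.69 and 7.89 with clothianidin and at 7.91 and 7.88 with vehicle, a log2 difference of -0.11 (SE 0.27). Hspa1b was at 6.6 and 6.73 with clothianidin and at 6.45 and 6.92 with vehicle, a difference of -0.02 (SE 0.29). The groups overlapped for both genes, and since the 2 genes are near-identical copies their probe sets may share signal.

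Dnajb1, Hsph1, Hsp90aa1 and Chordc1 had differences below their standard errors. Dnajb1, the J-domain protein that feeds clients to HSP70, was at 9.31 and 9.27 with clothianidin and at 9.48 and 9.31 with vehicle, and Hsph1, the HSP110 nucleotide exchange factor, was at 12.11 and 12.06 with clothianidin and at 12.39 and 12.17 with vehicle. The Dnajb1 arrays met at 9.31, while those of Hsph1 lay apart with a difference of -0.20 and a standard error of 0.27. Hsp90aa1, the inducible cytosolic HSP90, was at 16.55 and 16.46 with clothianidin and at 16.58 and 16.23 with vehicle. Chordc1, an HSP90 co-chaperone whose promoter run of heat shock units is printed above, was at 11.49 and 11.42 with clothianidin and at 11.28 and 11.48 with vehicle. Both overlapped, with differences of 0.10 and 0.08.

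The small heat shock protein genes overlapped between groups. Hspb1, encoding HSP27, was at 5.10 and 6.65 with clothianidin and at 5.64 and 5.29 with vehicle, so the 2 clothianidin arrays were the lowest and the highest of all. Its difference of 0.41 had a standard error of 0.48, and it was -0.37 without clothianidin replicate 7 and 1.19 without clothianidin replicate 6. Values at this level lie among those of odorant and vomeronasal receptor genes, which brain tissue hardly uses: 95% of their 1412 probe sets were under 5.86 to 6.38, depending on the array, and Hspb1 was under that limit on 3 of 4 arrays. The array with the high Hspb1 value was also the one with the high Ttr value, and the part of choroid plexus tissue in it was not tested. Hspb8, the partner of BAG3 in selective autophagy, was at 7.65 and 8.0 with clothianidin and at 7.43 and 7.78 with vehicle, with overlap and a difference of 0.22.

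The 10 members with paired heat shock units had a median log2 difference of 0.15, with 6 higher. Over all 2415 measured genes with such units in a window, 1149 were higher and 1253 lower, with a median of -0.02, against a median of -0.01 over all 15691 measured genes with a window.

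**Figure D4:**
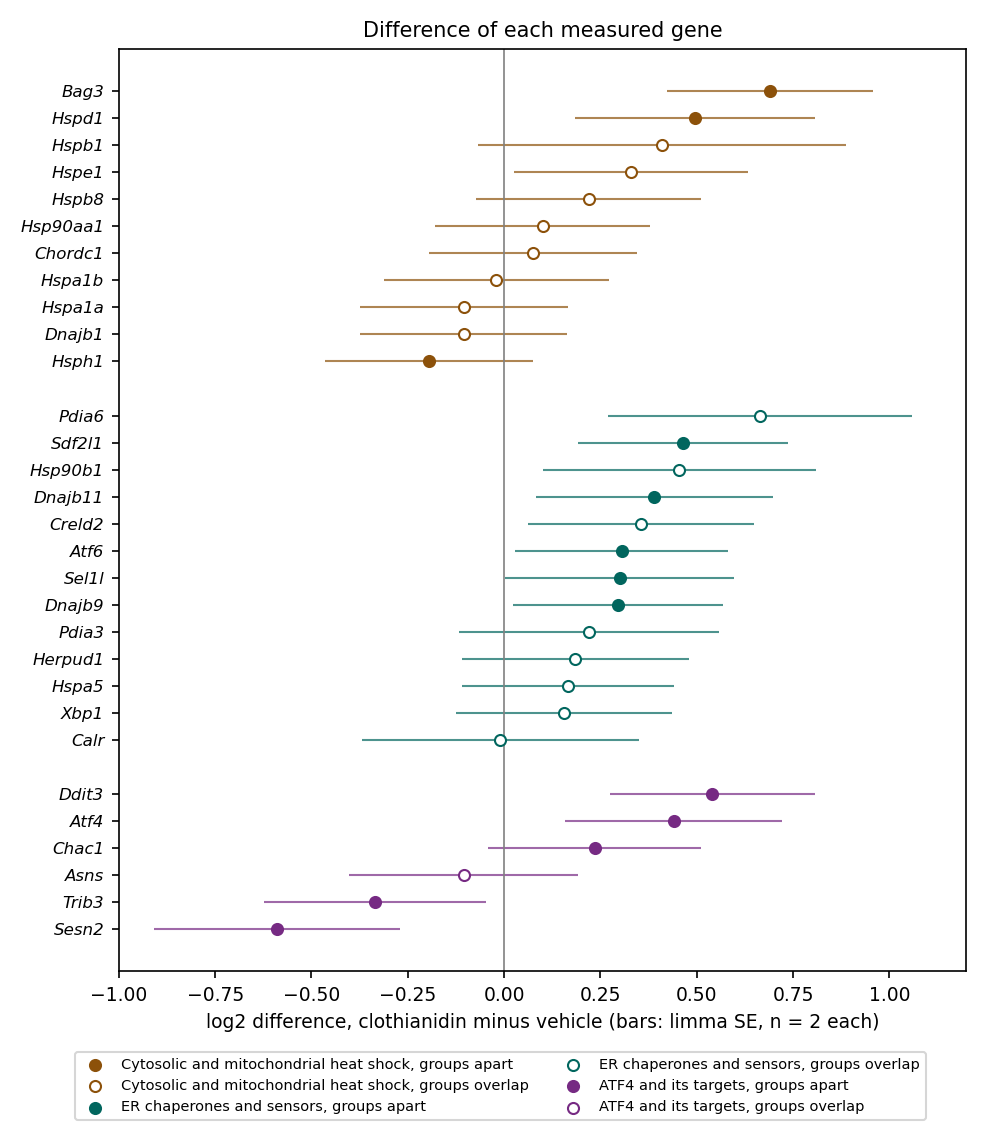
Log2 difference of each measured gene, clothianidin minus vehicle (horizontal axis), with limma's standard error as bars (n = 2 each), ordered within gene group. Filled points are genes whose groups do not overlap, 13 of 30, and open points are those whose groups overlap.

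In the ER group, 12 of 13 genes were higher with clothianidin, the exception being Calr at -0.01, and the differences reached 0.67. The smallest unadjusted limma p in the group was 0.127, for Sdf2l1, and every adjusted p was 0.997. Groups did not overlap for 5 of the 13, all higher: Sdf2l1, Dnajb9, Dnajb11, Sel1l and Atf6. That is 38.5%, where all probe sets gave 30.6% in either direction and 15.1% on the higher side.

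Sdf2l1, a partner of the ER J-domain proteins, was at 8.19 and 8.20 with clothianidin and at 7.86 and 7.6 with vehicle. The clothianidin arrays agreed within 0.01 and both exceeded the vehicle arrays, with a difference of 0.47 and a standard error of 0.27. Dnajb9, an ER J-domain protein that holds IRE1 in check, was at 13.48 and 13.53 with clothianidin and at 13.33 and 13.09 with vehicle, a difference of 0.30. Dnajb11, a BiP cofactor for secreted clients, was at 8.27 and 8.88 with clothianidin and at 8.23 and 8.14 with vehicle, a difference of 0.39. Its separation rested on 0.04 between clothianidin replicate 6 and vehicle replicate 7, and the difference was 0.09 without clothianidin replicate 7.

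Of the 2 other genes whose groups lay apart, one is a sensor and one serves disposal. Atf6, the membrane-bound sensor, was at 12.02 and 11.73 with clothianidin and at 11.64 and 11.50 with vehicle, a difference of 0.31 (SE 0.28). Sel1l, the scaffold of the ubiquitin ligase that removes misfolded ER proteins, was at 12.52 and 11.98 with clothianidin and at 11.96 and 11.94 with vehicle. The separation of Sel1l was 0.02 between clothianidin replicate 7 and vehicle replicate 7, and its difference of 0.30 was 0.03 without clothianidin replicate 6.

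The best known lumenal chaperone genes overlapped between groups. Hspa5, encoding BiP and the classic reporter of the response, was at 16.48 and 16.44 with clothianidin and at 16.44 and 16.15 with vehicle, a difference of 0.17 (SE 0.28). Hsp90b1, the ER form of HSP90, was at 15.25 and 15.14 with clothianidin and at 15.21 and 14.27 with vehicle. Its difference was 0.46, and -0.02 without vehicle replicate 9. Calr, the calcium-binding chaperone of glycoproteins, was at 16.32 and 16.05 with clothianidin and at 16.66 and 15.73 with vehicle, so both clothianidin arrays lay between the vehicle arrays.

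For both disulfide isomerases vehicle replicate 9 was the lowest array and clothianidin replicate 6 the highest. Pdia6 was at 11.85 and 11.33 with clothianidin and at 11.45 and 10.40 with vehicle, with a difference of 0.67 and a standard error of 0.40, and it was 0.14 without vehicle replicate 9. Pdia3, which works with calreticulin, was at 13.62 and 13.03 with clothianidin and at 13.40 and 12.81 with vehicle. Its difference of 0.22 was -0.08 without vehicle replicate 9 and also without clothianidin replicate 6. Creld2, an ER stress-inducible protein, was at 7.98 and 7.63 with clothianidin and at 7.63 and 7.27 with vehicle, with clothianidin replicate 7 and vehicle replicate 7 at the same value.

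Xbp1 and Herpud1 gave no separation. Xbp1, whose mRNA IRE1 splices, was at 13.33 and 13.50 with clothianidin and at 13.42 and 13.10 with vehicle, a difference of 0.16. A probe set summary of this kind does not tell spliced from unspliced Xbp1 mRNA. Herpud1, an organiser of ER-associated degradation, was at 13.25 and 12.79 with clothianidin and at 12.72 and 12.95 with vehicle, a difference of 0.19 that was -0.05 without clothianidin replicate 6.

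Within-group gaps in the ER genes were close in size to the difference between groups. Vehicle replicate 9 gave the lowest value for 12 of the 13, Herpud1 being the exception, where it was the lowest array for 27.6% of all probe sets and for 38.8% of those at or above the genes' median level. Clothianidin replicate 6 gave the highest value for 8 of the 13, against 27.0% of all probe sets. With its sign kept, the median of vehicle replicate 7 minus vehicle replicate 9 was 0.29, next to a median difference of 0.30 between groups. The signed median of clothianidin replicate 6 minus clothianidin replicate 7 was 0.27. Without vehicle replicate 9 the ER median was 0.18 with 9 of 13 higher, and without clothianidin replicate 6 it was 0.18 with 10 of 13 higher. Without vehicle replicate 7 or clothianidin replicate 7 all 13 were higher, with medians of 0.44 and 0.45.

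The 5 genes with an ER stress element, Hspa5, Hsp90b1, Pdia6, Creld2 and Calr, had a median difference of 0.36, with 4 higher, and all 5 had their lowest value on vehicle replicate 9. The groups overlapped for every one of the 5, while the 5 ER genes whose groups lay apart held no such element in their windows or, for Atf6, had no window.

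**Figure D5:**
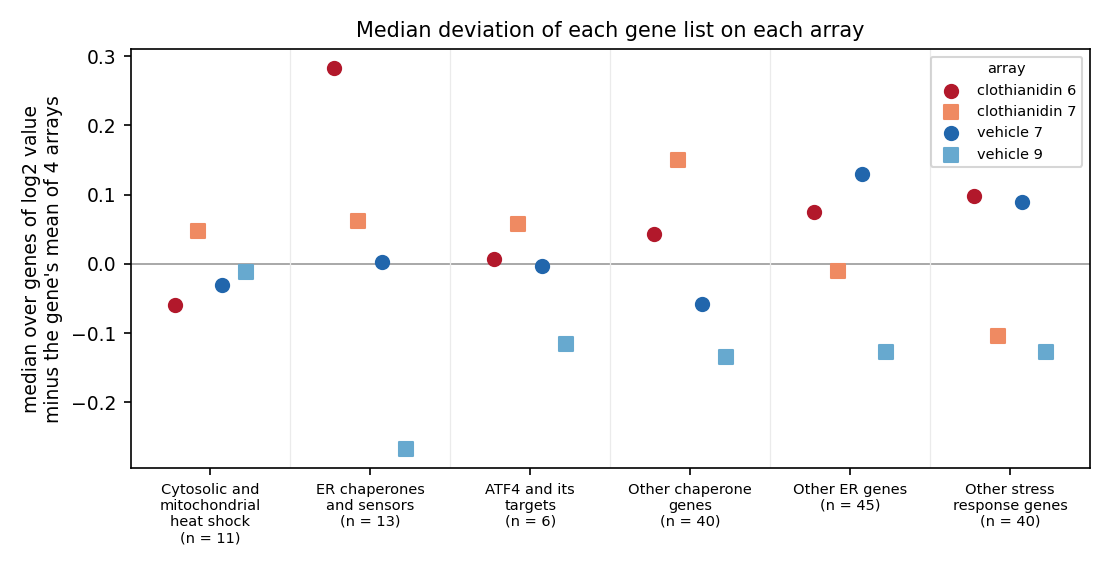
Median over the genes of a list of the log2 value minus the gene's mean over the 4 arrays (vertical axis), for the 3 gene groups and for 3 lists of other genes of the same pathways (horizontal axis, with the number of genes measured), by array. For the ER genes clothianidin replicate 6 lies at 0.28 and vehicle replicate 9 at -0.27, with the other arrays at 0.06 and 0.00.

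In the ATF4 branch 3 genes had a higher and 3 a lower mean with clothianidin. Atf4, the translation-controlled transcription factor, was at 12.79 and 12.85 with clothianidin and at 12.19 and 12.57 with vehicle, a difference of 0.44 (SE 0.28). Ddit3, encoding the stress factor CHOP, was at 9.33 and 9.34 with clothianidin and at 8.84 and 8.75 with vehicle, a difference of 0.54 (SE 0.27) and an unadjusted limma p of 0.0767. Both clothianidin arrays exceeded both vehicle arrays for either gene, and for Ddit3 no within-group gap exceeded 0.09. A second Ddit3 probe set, TSUnmapped00000016.mm.2, was at 8.03 and 8.23 with clothianidin and at 8.40 and 8.03 with vehicle, so the groups overlapped, with a difference of -0.09 and a standard error of 0.29. The 2 probe sets for Ddit3 therefore disagree in sign.

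Of the 4 remaining genes of the branch, Chac1 had the higher mean with clothianidin and the others the lower. Trib3, a pseudokinase that feeds back on the pathway, was at 6.02 and 6.15 with clothianidin and at 6.21 and 6.63 with vehicle, a difference of -0.34 with groups apart by 0.06. Asns, the asparagine synthetase and the standard reporter of amino acid shortage, was at 13.08 and 13.28 with clothianidin and at 13.54 and 13.03 with vehicle, a difference of -0.11 with overlap. Chac1, a glutathione-degrading enzyme, was at 4.66 and 4.56 with clothianidin and at 4.53 and 4.22 with vehicle. Sesn2, a leucine sensor that restrains mTORC1, was at 4.23 and 4.58 with clothianidin and at 5.31 and 4.68 with vehicle, a difference of -0.59 (SE 0.32). The groups lay apart for Chac1 and Sesn2, but both genes were under the receptor limit given above on all 4 arrays, so neither was shown to be above background. Trib3 lay close above that limit, which was 5.855 and 6.105 on the clothianidin arrays and 5.985 and 6.378 on the vehicle arrays.

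Without overlap there were 5 of the 6 ATF4 genes, or 83.3% where all probe sets gave 30.6%, and they ran in both directions, 3 higher and 2 lower. Of these 5, Chac1 and Sesn2 were under the receptor limit and Trib3 was close above it. At a level at or above the median of all probe sets the 3 genes were Atf4, Ddit3 and Asns, with a median of 0.44. The median of all 6 was -0.02 without vehicle replicate 9.

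Beyond the members, 3 lists of other genes of the same pathways were described. The first list held other heat shock and chaperone genes, mostly of cytosol and mitochondria and including subunits of the cytosolic chaperonin, but also Hsf2, a heat shock transcription factor, and Serpinh1, the collagen chaperone of the ER. Of its 40 measured genes 34 were higher, with a median log2 difference of 0.18, and 0 passed limma's adjusted threshold. Of all probe sets 48.1% were higher, and 58.4% of those at or above the median level. The list's median level was 10.76 to 11.08, depending on the array. The list was chosen with earlier results of these data known. With 1 array left out, 27 to 33 of the 40 were higher, with medians of 0.15 to 0.26, and after quantile and loess normalization 31 were higher, with medians of 0.12 and 0.14. The groups did not overlap for 12 of the 40, 11 higher and 1 lower, where all probe sets gave 15.1% higher and 15.5% lower. By the smallest unadjusted p in each direction, the named genes were Hsbp1, an HSF1-binding protein, at 12.02 and 12.57 with clothianidin and 11.74 and 11.32 with vehicle, and Dnaja2, a J-domain protein, at 9.6 and 9.5 with clothianidin and 8.86 and 9.05 with vehicle. On the lower side stood Hspb7, a small heat shock protein gene, at 4.30 and 4.25 with clothianidin and 6.29 and 4.87 with vehicle, and the chaperonin subunit gene Tcp1 at 10.92 and 11.14 with clothianidin and 11.53 and 10.86 with vehicle. The groups lay apart for the first 3 and overlapped for Tcp1, and Hspb7 was under the receptor limit on 3 of 4 arrays.

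Other ER genes, which serve sensing, folding, translocation and degradation, were higher for 22 of 45 with a median of -0.005, and 0 passed limma's adjusted threshold. With 1 array left out between 14 and 29 of the 45 were higher. Sec24d, a coat protein of ER export, was at 5.64 and 5.09 with clothianidin and 4.53 and 4.58 with vehicle, all under the receptor limit. Canx, the membrane-bound counterpart of calreticulin, was at 14.30 and 14.06 with clothianidin and 13.89 and 13.54 with vehicle, a difference of 0.47 with groups apart. Wfs1, an ER membrane protein gene, was at 9.81 and 9.22 with clothianidin and 9.98 and 10.06 with vehicle, and Creb3l2, an ER-anchored transcription factor gene, at 7.95 and 6.90 with clothianidin and 7.80 and 7.98 with vehicle. The difference between this list and the 13 member genes was not tested.

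Other genes of the eIF2α and ATF4 response were higher for 23 of 40, with a median of 0.04, and 0 passed. With 1 array left out the count ran from 13 to 28. The translation repressor gene Eif4ebp1 was at 5.02 and 5.04 with clothianidin and 4.51 and 4.55 with vehicle, and the tRNA synthetase gene Tars1 at 9.14 and 9.23 with clothianidin and 8.99 and 8.12 with vehicle. On the lower side were the tRNA synthetase gene Wars1, at 11.27 and 11.57 with clothianidin and 12.21 and 11.94 with vehicle, and the glycine transporter gene Slc6a9, at 12.97 and 12.90 with clothianidin and 13.46 and 13.17 with vehicle. The groups lay apart for all 4, Eif4ebp1 was under the receptor limit on all 4 arrays, and the 2 synthetase genes, both ATF4 targets, ran in opposite directions.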

How the data were processed

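Total RNA of 4 cerebellum samples was hybridised to Affymetrix whole-transcript arrays, 1 per sample, as the labels' protocols describe. Per the submitters' processing notes, RMA made the deposited log2 values, 1 summary for each probe set. Version and settings of RMA and the log base are not given in the sources used here, and base 2 was assumed from RMA's usual scale. No scanner files were used, and the number of arrays limits the precision. Symbols came from the platform annotation of 19572 probe sets.

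For the comparison, lmFit and eBayes (limma 3.58.1, R 4.3.3) were run on all 22206 probe sets, with Benjamini-Hochberg adjustment at 0.05 and no filter, after tests on simulated data. Moderation used a prior SD of 0.306 and 5.96 prior beside 2 residual degrees of freedom. All measured members were named, and from each of 3 other pathway lists the 2 genes with the smallest unadjusted p in each direction. The members and lists were chosen with earlier results of these data known. Of the listed names, 8 tRNA synthetase genes were matched through synonyms, Wars1 and Tars1 among them. Alternatives were other normalizations, level filters, priors and thresholds, and leaving out each array.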

Additional observations from a re-analysis of the deposited data

How the results depend on the processing

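The adjusted p of the 30 genes passed 0.05 under none of the alternatives run. Over all probe sets, limma gave 0 calls with all arrays and 0 to 1 with 1 array left out, the 1 call being Ttr without clothianidin replicate 6. A model without moderation gave 8 calls, none of them a member. Their log2 differences ran from -0.46 to 0.21. That model takes each variance from 2 residual degrees of freedom, so replicates of nearly equal value can pass at a small difference. The count at an unadjusted p under 0.05 was 940, between 576 and 1276 with 1 array left out, and 464 with probe sets under the median level dropped. The count at least 1.5-fold apart without overlap was 1689, between 2922 and 4120 with 1 array left out (a lone array overlaps less), 924 with the same probe sets dropped, 4563 at the lower fold threshold tried and 206 at 2-fold. The heat shock median of 0.10 was -0.0213 after quantile normalization, 0.0374 after loess normalization, and 0.045 to 0.215 with 1 array left out. The ATF4 median of 0.065 was -0.0225 to 0.20 with 1 array left out, and 0.44 over its members not under the median level. The ER median kept its sign, from 0.175 to 0.45. Loess normalization and the counts of members higher under each setting were chosen after seeing the data. The sign changed under some setting for 10 of the 30 genes. With 1 array left out the log2 difference ran from -0.255 to 0.215 for Hspa1b, -0.075 to 0.275 for Hsp90aa1, -0.365 to 1.185 for Hspb1, -0.025 to 0.175 for Chordc1, -0.015 to 0.925 for Hsp90b1, -0.075 to 0.515 for Pdia3, -0.475 to 0.455 for Calr, -0.045 to 0.415 for Herpud1, -0.005 to 0.315 for Xbp1 and -0.36 to 0.15 for Asns. Median centring gave 0.005 for Hspa1b and 0.015 for Calr. Quantile normalization gave -0.0275 for Hsp90aa1 and -0.0213 for Chordc1, and loess normalization gave -0.0203 for Chordc1. The cause was not tested. No paired analysis was possible because the groups share only 1 replicate number.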

Other observations

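Genes outside the members whose promoter window holds an ER stress element were looked at after the values had been seen. Of 32 such genes 23 were measured, and 15 had a higher and 8 a lower mean with clothianidin. Their median log2 difference was 0.12, where 49.1% of measured genes with any window were higher. Vehicle replicate 9 was the lowest array for 9 of the 23, and for 4552 of the 15691 measured genes with any window. Genes with the UPR element, none of them a member, numbered 138 measured, with 89 higher and 48 lower, a median of 0.09, and vehicle replicate 9 the lowest array for 55. The counts for both motifs used the deposited values only and were not matched for level. Among probe sets at or above the members' median level, 60.5% were higher, and vehicle replicate 9 was lowest for 38.8%. The part of level in the motif counts was not tested.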
